A study of Saccharomyces cerevisiae with 6 samples.

Results

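The 8 genes described here make, recycle and import vitamin B6 in budding yeast: the synthase genes SNZ1, SNZ2 and SNZ3, the glutaminase genes SNO1, SNO2 and SNO3, the oxidase gene PDX3 and the importer gene TPN1. They were picked by gene symbol from 5539 genes, and all 8 were measured, each by 2 spots per array. The set was chosen by a look at the log2 ratios of this same comparison, so the values of the 8 genes are a description and carry no test. Total RNA of a Saccharomyces cerevisiae strain labelled as a met4 deletion mutant in the series title and as a MET4 mutant in the sample titles was hybridised directly against wild-type RNA on 6 arrays, and both strains had been exposed to 0.2 mM arsenite, As(III), for 1 h. The sources used here give neither strain background nor growth medium nor the extent of the deletion, and no culture without arsenite was analysed here.

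Vitamin B6 is used by the cell as pyridoxal 5′-phosphate, a cofactor that enzymes of amino acid metabolism bind to move amino groups or to cleave and join carbon-sulfur bonds. In yeast the Snz and Sno proteins work together: Sno is a glutaminase that releases ammonia, and Snz is the synthase that builds the ring of the cofactor from it and sugar phosphates. SNZ1 and SNO1 are known as genes that are induced in stationary phase and on amino acid shortage, the latter through the activator Gcn4, whereas SNZ2, SNZ3 and their SNO partners are known to be repressed by thiamine. Met4 is an activator that controls sulfur amino acid synthesis, in which several steps use pyridoxal phosphate. The cell can also bypass the synthase by taking up pyridoxine through Tpn1 and oxidising its phosphate with Pdx3.

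All values below are log2 ratios of mutant over wild type after the median of all spots was subtracted from each array, so 0 is the ratio of the typical spot. The sources used here do not state the log base, which is taken as 2, or the numerator. The ratio is called likely to be mutant over wild type because the sample titles name the mutant first and because MET4, the gene deleted according to the title, was below 0 on every array (-0.82, -0.94, -0.33, -0.58, -0.55 and -0.32 on arrays 1 to 6). The MET4 mean was -0.59 ± 0.25 (SD, n = 6), a 0.664-fold ratio, which does not by itself show that the transcript was absent. As deposited, MET4 was at 0.59 on array 3 and its mean missed the threshold (limma, adjusted p = 0.600). "Higher" and "lower" rest on that reading. Before centring the array medians ran from -0.95 to 0.92, and the arrays correlated with each other over genes at r between 0.0817 and 0.759. Every array carried the mutant in Cy3, so a dye effect on a single gene cannot be told apart from the mutation. Nothing in the labels says that the arrays came from separate cultures, so p-values reflect only how far these arrays vary, possibly for technical reasons. In RNA from whole cultures, a change in the share of cells that express a gene and a change in RNA per cell cannot be told apart.

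SNZ1 stood highest of the 8 genes. Its log2 ratio was 1.11, 0.45, 3.10, 1.55, 1.43 and 1.29 on arrays 1 to 6. It was above 0 on every array, with array 3 far above and array 2 below the other 4, which lay close together. The mean was 1.49 ± 0.88 (SD, n = 6), a 2.81-fold ratio, and placed SNZ1 27th from the top of 5539 genes. In the values before centring SNZ1 was also above 0 on all 6 arrays, between 0.34 on array 6 and 4.02 on array 3.

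SNZ2, a second gene for the synthase subunit, had log2 ratios of 0.69, -0.52, 2.19, 1.03, 1.61 and 0.75 on arrays 1 to 6. Array 2 was the exception, with a ratio below the array median, and arrays 3 and 5 were the highest. The mean of SNZ2 was 0.96 ± 0.92 (SD, n = 6). SNZ3, the third synthase gene, had log2 ratios of 0.79, 0.20, 1.60, -0.33, 1.22 and 0.32, with a mean of 0.64 ± 0.71. Here it was array 4 that lay below 0, while arrays 3 and 5 were again the highest. SNZ2 and SNZ3 are near-identical copies, and without the sequences on the array the signal of one cannot be told apart from that of the other. Their ratios were nevertheless unequal on some arrays: SNZ2 exceeded SNZ3 by 1.36 on array 4 and was under it by 0.72 on array 2 (log2 difference SNZ2 minus SNZ3, -0.72). The 2 spots of 1 gene differed by at most 0.30 for SNZ2 and 0.22 for SNZ3 on any array, and over all 8 genes by at most 0.44, for TPN1 on array 5.

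**Figure D1:**
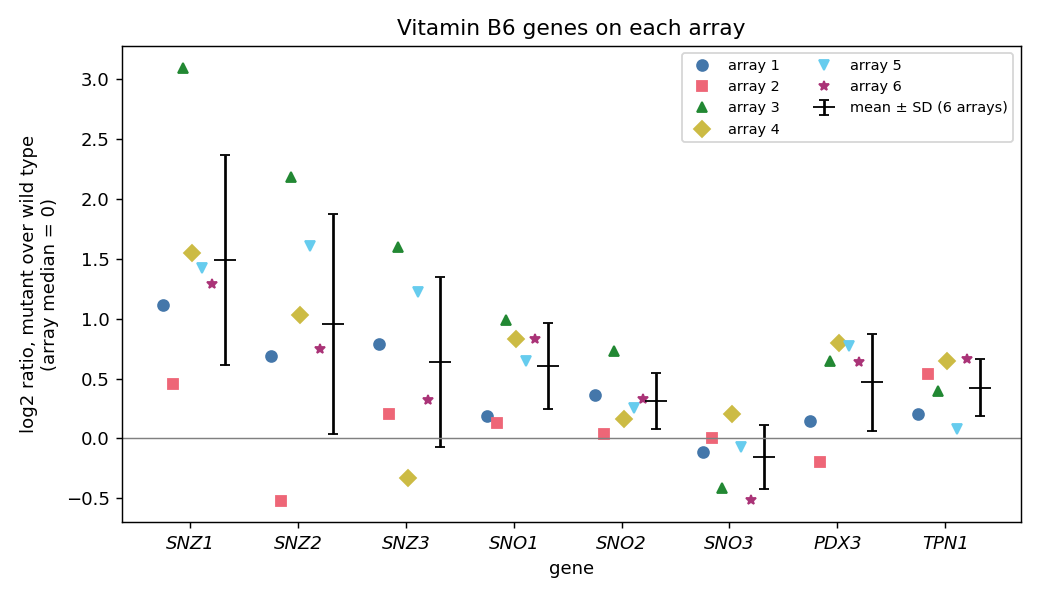
Log2 ratio of mutant over wild type (y axis, array median at 0) of the 8 vitamin B6 genes (x axis) on each of 6 arrays, with the mean and the SD between arrays drawn as a black bar beside each gene. The SNZ genes spread most, from 0.45 to 3.10 for SNZ1, and SNO3 is the one gene with a mean below 0.

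In each neighbouring SNZ and SNO pair the glutaminase gene had the smaller mean ratio, but the means of SNO1 and SNZ3 were close (SNZ3 minus SNO1, 0.03 ± 0.73, with SNO1 higher on 2 of 6 arrays). For SNO1, the partner of SNZ1, the log2 ratio was 0.19, 0.13, 0.99, 0.83, 0.65 and 0.83 on arrays 1 to 6, with a mean of 0.60 ± 0.36 (SD, n = 6). All 6 arrays were above 0, and arrays 1 and 2 were the lowest. SNO2 had log2 ratios of 0.36, 0.04, 0.73, 0.17, 0.25 and 0.33, all above 0 though barely so on array 2, and a mean of 0.31 ± 0.24. SNO3 had -0.12, 0.0047, -0.42, 0.20, -0.07 and -0.52, with a mean of -0.15 ± 0.27 and only arrays 2 and 4 above 0. SNO2 and SNO3 are also near-identical copies, and the same limit on telling their spots apart applies. When each array was centred in 48 runs of consecutive spots instead of once, the means of SNO1, SNO2 and SNO3 were 0.36, 0.09 and -0.07, so these 3 values were nearer to 0 under that setting. The mean of SNO3 was -0.08 without array 6.

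PDX3 encodes pyridoxamine phosphate oxidase, which makes pyridoxal phosphate from the other phosphorylated forms of the vitamin. Its log2 ratio was 0.15, -0.20, 0.65, 0.80, 0.77 and 0.64 on arrays 1 to 6, a mean of 0.47 ± 0.40 (SD, n = 6). Arrays 3 to 6 lay close together and arrays 1 and 2 lay apart below them. TPN1, the plasma membrane importer of pyridoxine, had log2 ratios of 0.21, 0.54, 0.40, 0.64, 0.08 and 0.66, with a mean of 0.42 ± 0.24. TPN1 was above 0 on every array, and unlike the SNZ genes it was higher on array 2 than on array 3.

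In order of the mean log2 ratio the genes ran SNZ1, SNZ2, SNZ3, SNO1, PDX3, TPN1, SNO2 and SNO3. The differences between neighbours in that order, such as SNZ2 over SNZ3 at 0.32 ± 0.70 (SD over arrays, n = 6), lay within the spread between arrays, except that of SNZ1 over SNZ2 (0.53 ± 0.41, higher on 5 of 6 arrays) and of SNO2 over SNO3 (0.47 ± 0.46, higher on 5 of 6 arrays), whose means just exceeded 1 SD. SNZ1 was above SNZ3 on 6 of 6 arrays, with a mean difference of 0.85 ± 0.71. SNO1 was above SNO3 on 6 of 6 arrays as well, by 0.76 ± 0.53.

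Of the 8 genes, 4 passed the threshold in the fit across all genes (limma, adjusted p under 0.05) and all of these were higher: SNZ1, SNZ2, SNO1 and TPN1. Over all 5539 genes tested, 15.1% were called, 9.41% as higher and 5.69% as lower. Because the genes were picked from this comparison, nothing is read from that count or from the call of any of the 8 genes, under any setting. The count was 2 in the values as deposited (SNZ1 and SNZ2) and also without array 5 (SNZ1 and SNO1). It was 1 without array 3 or without array 6, with SNZ1 left each time. TPN1 lost its call as deposited and whichever array was left out. PDX3 passed without array 2. SNZ3 passed without array 4, where SNZ2 did not, and with quantile normalization. The median of the 8 means was 0.54, beside 0.0053 for the means of all genes. A ratio above 0 on all 6 arrays was found for 4 of the 8 genes (SNZ1, SNO1, SNO2 and TPN1) and for 9.89% of all genes. These values are after centring. As deposited, SNO1 and TPN1 were below 0 on array 6 (-0.12 and -0.28), and SNO2 on arrays 4 and 6 (-0.15 and -0.62).

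The rank of a gene within its array does not depend on how wide the ratios of that array are. SNZ1 stood at percentile 99.2, 85.6, 99.7, 99.0, 97.6 and 97.9 of all genes on arrays 1 to 6, so it was near the top of each array but array 2. SNZ2 ran from percentile 16.5 on array 2 to 99.2 on array 3, and SNZ3 from 23.6 on array 4 to 98.0 on array 3. The percentile of SNO1 lay between 63.9 and 93.8, that of SNO2 between 55.5 and 88.0 and that of SNO3 between 7.46 and 62.9. PDX3 spanned 35.3 to 91.5 and TPN1 58.2 to 89.0. The high ratios of array 3 were therefore high ranks too, for the 3 SNZ genes and SNO1.

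**Figure D2:**
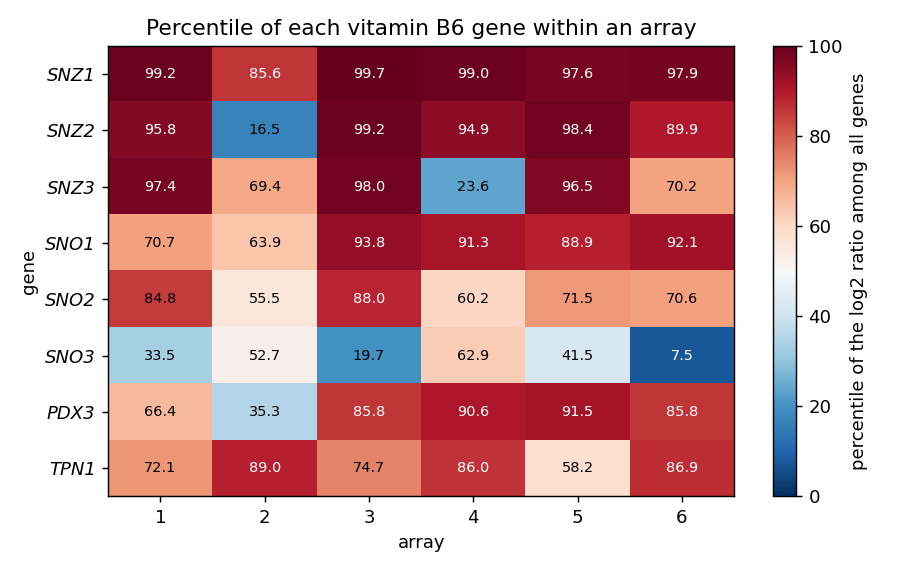
Percentile of the log2 ratio of each vitamin B6 gene (rows) among all genes on the same array (columns 1 to 6), from blue (low) through white at the middle to red (high). SNZ1 is dark red in every column but that of array 2, where it is at 85.6, and SNO3 is on the blue side on arrays 1, 3, 5 and 6.

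Seen array by array, the mean of the 3 SNZ genes was 0.87, 0.04, 2.30, 0.75, 1.42 and 0.79 on arrays 1 to 6, and the mean of the 3 SNO genes was 0.15, 0.06, 0.43, 0.40, 0.28 and 0.22. Array 2 had both means near 0, but SNZ1, SNZ2 and SNZ3 lay apart there, at 0.45, -0.52 and 0.20. Array 2 was also the array least like the others over all genes, with a mean r of 0.291 to the other 5. Its part in the SNZ values was not tested. Without array 2 the mean of SNZ2 was 1.25 and that of SNZ1 1.70. Without array 3 they were 0.71 and 1.17.

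The 6 SNZ and SNO genes lie in the genome as 3 neighbouring pairs. The differences within pairs given below come from the values known when the genes were chosen, and carry no test. In the R64 gene table SNO1 and SNZ1 are adjacent on chromosome XIII, SNO2 and SNZ2 on chromosome XIV, and SNO3 and SNZ3 on chromosome VI, and in each pair the strand letters of the locus tags (YMR095C and YMR096W, YNL334C and YNL333W, YFL060C and YFL059W) place the partners on opposite strands, reading away from each other. No coordinates are given because the deposited files name no genome build. SNZ1 exceeded SNO1 on 6 of 6 arrays, by 0.92, 0.32, 2.11, 0.72, 0.78 and 0.46 on the log2 scale (mean 0.88 ± 0.64, SD, n = 6). SNZ2 exceeded SNO2 on 5 of 6 arrays, with array 2 the exception at -0.56 (mean difference 0.64 ± 0.75). SNZ3 exceeded SNO3 on 5 of 6 arrays, with array 4 the exception at -0.53 (mean difference 0.79 ± 0.88). In all 3 pairs the largest difference was on array 3. The limit given above on telling SNZ2 from SNZ3, and SNO2 from SNO3, applies to the pairs on chromosomes XIV and VI.

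**Figure D3:**
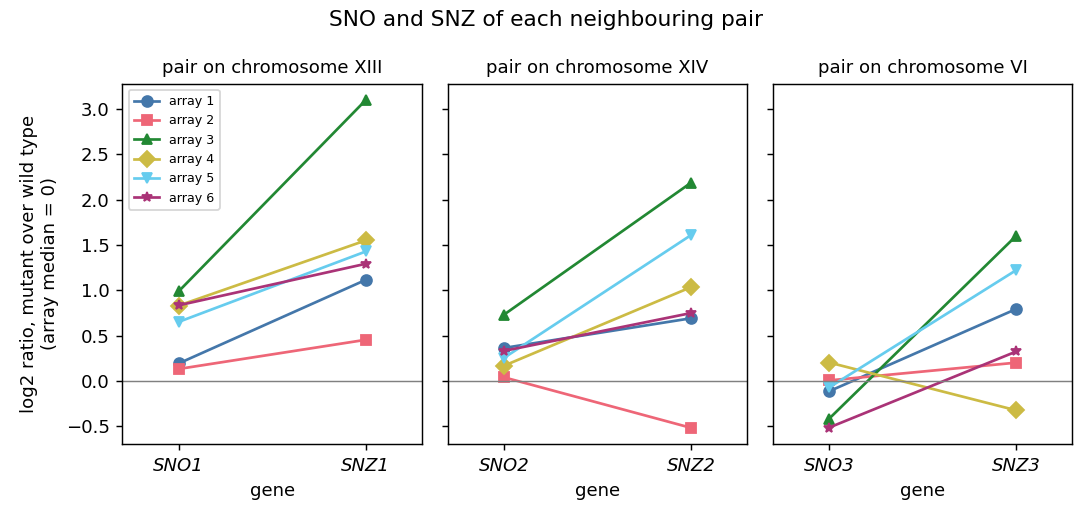
Log2 ratio of mutant over wild type (y axis) of the SNO gene and the SNZ gene (x axis) of each neighbouring pair, with a line joining the values of 1 array. The lines climb from SNO to SNZ on every array for the SNO1 and SNZ1 pair and on 5 of 6 arrays for the other pairs. Signal of SNZ2 and SNZ3, and of SNO2 and SNO3, cannot be told apart.

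The genes that flank the pairs were set beside them. DDI2 and DDI3, near-identical genes next to SNO2 and SNO3 that are known to respond to DNA damage, stood at -0.01 ± 0.23 (limma, adjusted p = 0.961) and 0.33 ± 1.03 (adjusted p = 0.491), and DDI3 was at 2.42 on array 6 but at 0.07 or lower on the other 5. THI12 and THI5, genes of thiamine precursor synthesis next to SNZ2 and SNZ3, stood at 0.19 ± 0.34 (limma, adjusted p = 0.411) and 0.11 ± 0.27 (adjusted p = 0.627). Without the sequences on the array, signal shared between DDI2 and DDI3, or between THI12, THI5 and similar genes, cannot be told apart. On chromosome XIII the kinetochore gene CTF13, next to SNO1, stood at 0.14 ± 0.24 (limma, adjusted p = 0.530). MTG1, a mitochondrial GTPase gene next to SNZ1, stood at 0.56 ± 0.58 and was above 0 on 5 of 6 arrays (limma, adjusted p = 0.0628). MTG1 passed without array 6 and with quantile normalization (adjusted p from 0.0243 to 0.267 over all settings run). Of the 6 flanking genes 0 passed limma's adjusted threshold with all arrays, and 1, MTG1, had an unadjusted p under 0.05. Over all 5539 genes, 15.1% were called and 1636 had an unadjusted p under 0.05 from limma.

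Outside the 8 genes, 5 further genes of vitamin B6 handling were measured, and 1 passed the threshold, while 15.1% of all genes were called. YPR127W, which encodes a putative pyridoxal reductase, rose by 0.71 ± 0.57 (limma, adjusted p = 0.0237, higher on 5 of 6 arrays). Its log2 ratio was 0.37, -0.10, 1.29, 0.57, 1.43 and 0.74 on arrays 1 to 6, with array 2 lowest and arrays 3 and 5 highest, as for SNZ2. Over all genes, arrays 3 and 5 were also the pair most alike (r = 0.759), and array 3 had the widest spread of ratios. The YPR127W call was lost without array 3, 5 or 6, as deposited, and with centring by run of spots. The limma adjusted p was up to 0.110 over these settings. BUD16, the pyridoxal kinase gene, stood at 0.05 ± 0.17 (95% interval from limma -0.22 to 0.32), and its homologue BUD17 at -0.12 ± 0.18. YBL036C, a pyridoxal phosphate binding protein, had a mean of 0.16 ± 0.23, and MTM1, a mitochondrial carrier of the cofactor, of -0.18 ± 0.30. The median of the 5 genes was 0.05.

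Among 40 genes for enzymes that use pyridoxal phosphate, 6 rose, 2 fell and 32 did not pass (limma, adjusted p under 0.05), with a list median of 0.05 beside 0.0053 for all genes. The shares over all genes tested were 15.1% called, 9.41% higher and 5.69% lower. The 2 that fell belong to sulfur metabolism: MET17, O-acetylhomoserine sulfhydrylase (-2.27 ± 1.04), and CYS4, cystathionine beta-synthase (-1.28 ± 0.57). Of the other enzymes between homocysteine and cysteine, STR2, a cystathionine gamma-synthase, rose by 0.47 ± 0.21, while STR3, a cystathionine beta-lyase, stood at 0.0041 ± 0.50 and CYS3, cystathionine gamma-lyase, at -0.29 ± 0.73. The cofactor-using genes outside sulfur metabolism that rose were GAD1, glutamate decarboxylase (0.96 ± 0.48; limma, adjusted p = 0.00312), GCV2, the decarboxylase subunit of glycine cleavage (0.90 ± 0.63), SHM2, cytosolic serine hydroxymethyltransferase (0.84 ± 0.85), ARG8, acetylornithine aminotransferase (0.78 ± 0.57), and GPH1, glycogen phosphorylase (0.71 ± 0.42). GCV2 was highest on arrays 3 and 5, as SNZ2 and SNZ3 were, and these arrays were the pair most alike over all genes. SHM2 lost its call without array 3, 4, 5 or 6 and with centring by run of spots, STR2 as deposited and without array 1, 3 or 5, ARG8 as deposited and without array 6, and GPH1 as deposited. MET17, CYS4, GAD1 and GCV2 kept theirs under every setting run.

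**Figure D4:**
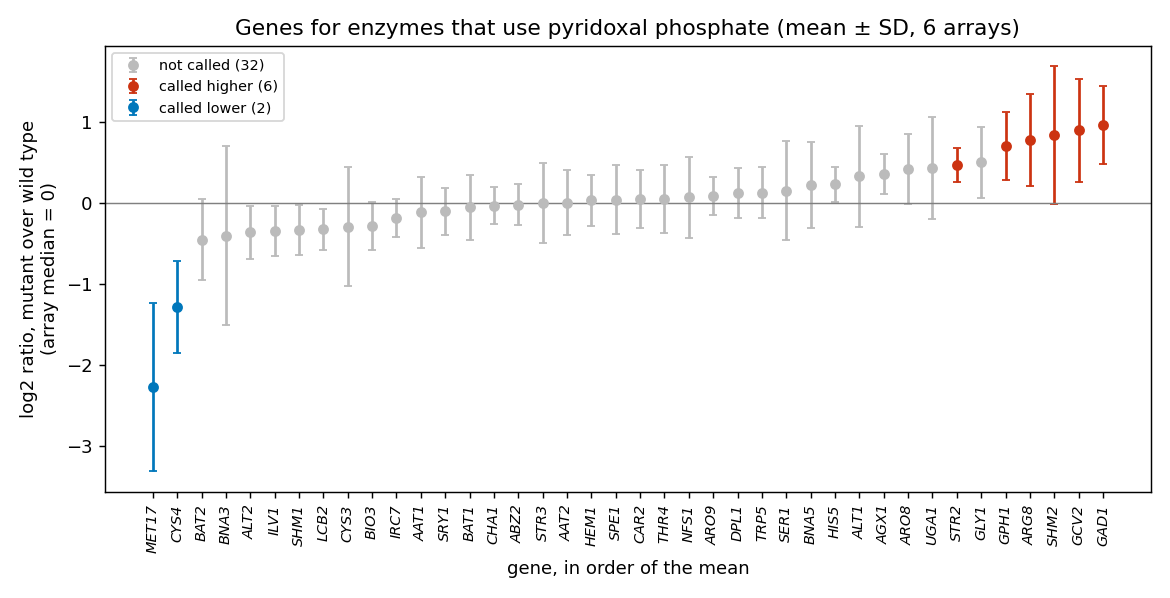
Mean log2 ratio of mutant over wild type (y axis, bars show the SD between 6 arrays) of the 40 genes for enzymes that use pyridoxal phosphate, in order of the mean (x axis), with called genes in colour. MET17 and CYS4 are set apart at the low end and most of the list lies within 0.5 of 0.

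Thiamine genes share a known signal with SNZ2 and SNZ3 and part of their chromosomal surroundings. Of 19 thiamine genes, 1 fell, 1 rose and 17 did not pass, with a list median of 0.11, while 15.1% of all genes were called. PHO3, a thiamine-repressed acid phosphatase gene, was below 0 on every array and fell by 1.07 ± 0.59 (adjusted p from limma 0.00341). PET18 rose by 0.55 ± 0.44 (limma, adjusted p = 0.0384), a call lost in the values as deposited, with centring by run of spots and without any 1 of arrays 2 to 6. Other acid phosphatase genes resemble PHO3 closely, and signal shared between them cannot be told apart here. The same limit applies to THI5, THI11, THI12 and THI13, which were counted as separate genes.

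Targets of Gcn4 in amino acid synthesis were compared because SNZ1 and SNO1 are known to be among its targets. Of 30 such genes 28 were measured, and 6 rose, 2 fell and 20 did not pass (limma, adjusted p under 0.05), with a list median of 0.30 that lay between 0.05 on array 2 and 0.53 on array 4. Over all genes 15.1% were called, 9.41% as higher and 5.69% as lower. The genes that rose were the arginine synthesis genes ARG4 (1.91 ± 0.55), ARG1 (1.48 ± 0.44), ARG3 (1.12 ± 0.87) and ARG8 (given above) and the lysine synthesis genes LYS1 (0.86 ± 0.75) and LYS2 (0.52 ± 0.23). TRP4, of tryptophan synthesis, fell by 0.61 ± 0.29. LYS21, a homocitrate synthase gene and thus also of lysine synthesis, fell by 0.52 ± 0.19. The lysine synthesis genes LYS9 and LYS20 did not pass (0.79 ± 0.87 and 0.03 ± 0.41). LYS9 was at 2.45 on array 3 and at 0.94 or lower on the others. The GCN4 transcript itself stood at 0.02 ± 0.38 (limma, adjusted p = 0.949), and the Gcn4 protein was not measured. ARG1 and ARG4 kept their calls under every setting run. ARG3 lost its call without array 6, LYS1 without array 3, 4, 5 or 6 and with centring by run of spots, LYS2 as deposited and without array 3 or 5, LYS21 as deposited, with centring by run of spots and without array 1 or 5, and TRP4 as deposited.

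The genes with values most like those of SNZ1 were found by the root mean square difference over the 6 arrays, which was 1.72 for the median gene. AAD15, a putative aryl-alcohol dehydrogenase gene, was nearest at 0.36, followed by TMA10, a ribosome-associated protein gene, at 0.38 and RTK1, a putative kinase gene, at 0.42. Their mean log2 ratios were 1.60 ± 1.01, 1.34 ± 0.92 and 1.26 ± 0.76, and like SNZ1 each was highest on array 3 and lowest on array 2. For SNO1, with 0.78 for the median gene, the nearest were RPN7, a proteasome subunit gene, at 0.12, ADE16, of purine synthesis, at 0.14 and SED1, a cell wall protein gene, at 0.15. These lists describe likeness on 6 arrays that share dyes and print layout, and carry no test. Without the sequences on the array, signal of AAD15 cannot be told apart from that of similar genes.

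**Figure D5:**
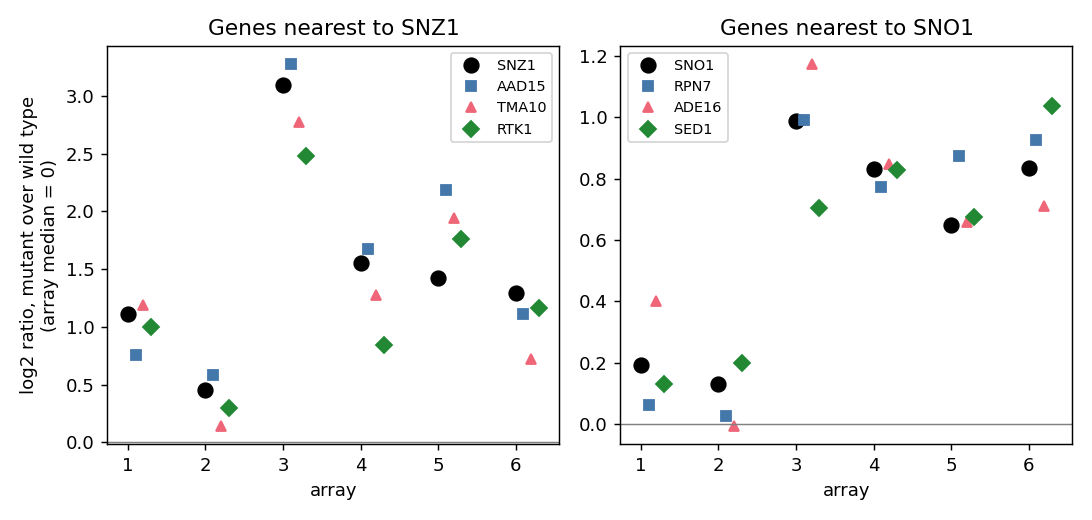
Log2 ratio of mutant over wild type (y axis) on arrays 1 to 6 (x axis) of SNZ1 and SNO1 (black circles) and of the 3 genes nearest to each, moved slightly sideways. AAD15, TMA10 and RTK1 reach 3.28, 2.77 and 2.48 on array 3, beside 3.10 for SNZ1.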

How the data were processed

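The deposited values are log ratios of both channels for 13056 spots on 6 arrays, taken as log2. How the authors corrected, filtered or normalized them is not given in the sources used here. A natural logarithm is also possible; each printed value would then be 1.44 log2 units per unit, with the same signs and tests. No scanner intensities were used, so spots near background were not marked, and the 6 arrays set the precision. No column of other samples was present (0).

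Each array was centred on its median, 134 exact zeros (0 of them in the 8 genes) were set to missing, and spots were averaged by the platform's gene symbols (11138 spots, 5539 genes; 1918 spots had no symbol). All but 5 of these genes were found by identifier in the R64 gene table. Genes were tested against a mean of 0 with limma 3.58.1 in R 4.3.3 (eBayes, Benjamini-Hochberg over all genes, adjusted p under 0.05), checked on simulated data. The dyes were swapped on 0 arrays.

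The members, lists and settings were chosen with earlier results of these data known. Named genes were the 8 members, MET4, GCN4, the further vitamin B6 genes, the sulfur enzymes, up to 6 called genes per list and the nearest genes; GPH1, LYS2, LYS9, LYS20, LYS21 and the flanking genes other than THI5 and THI12 were added after their values were seen. The lists share 5 genes. No nucleotide or protein sequence was used here.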

Additional observations from a re-analysis of the deposited data

Results flagged for a closer look

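Dixon's ratio of gap to range was computed for 46 genes, which did not include LYS9 and LYS20. In 3 of the 46, an array stood apart from the other 5 by more than the 95% critical value. Chance gives this in about 1 of 20 groups. CYS3 was at -1.76 on array 1 and between -0.25 and 0.25 on the others. DDI3, beside SNO3, was at 2.42 on array 6 and between -0.30 and 0.07 on the others, while its near-identical copy DDI2 was at 0.26 there. LYS21 was at -0.14 on array 4 and lower on the others. LYS9, which was not among the genes checked, was at 2.45 on array 3 and between 0.04 and 0.94 on the others. No value of the 8 vitamin B6 genes was past this limit.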

How the results depend on the processing

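For the 8 vitamin B6 genes no setting moved a mean by 1 SD between arrays or changed its sign; the largest moves came from centring in 48 runs of spots, a setting chosen after seeing the data (0.69 SD for SNO1 and 0.94 SD for SNO2), and the mean of SNZ1 stayed between 1.17 and 1.70. As deposited, 246 genes were called (187 above 0 and 59 below 0) against 836 (521 and 315) after centring; 0 of 5 further vitamin B6 genes were called by limma, 5 of 40 cofactor-using enzymes, 1 of 19 thiamine genes and 4 of 28 Gcn4 targets. Centring in runs also gave 0 of 5 vitamin B6 genes, and in each of these settings 1 of the 5 had an unadjusted p under 0.05. Over all 5539 genes, 722 had such a p as deposited and 1796 with centring in runs. Leaving out 1 array gave 456 (without array 3) to 965 genes called, 0 to 1 further vitamin B6 genes, 1 to 3 thiamine genes and 5 to 12 Gcn4 targets. Averaging or taking the median of spots is the same for genes with 2 spots. Other causes were not tested, and depth in the sense of signal over background could not be assessed. No paired analysis was possible because the arrays form 1 group.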
